A study of Homo sapiens with 24 samples.

Results

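Fatty acid synthesis and desaturation was followed through 10 genes in 2 human acute myeloid leukaemia (AML) cell lines treated for 24 h. The genes were taken by symbol from each line's table of 35587 gene symbols, and all 10 were found in both tables: ACLY, ACSS2, ACACA, FASN, SCD, FADS1, FADS2, ELOVL5, ELOVL6 and SREBF1. The lines are MOLM14 and OCI-AML2, both established myeloid leukaemia lines, and MOLM14 carries a KMT2A fusion and an activating internal duplication in FLT3. Each line was given DMSO, the solvent control, or the compound AZ2 or ARM165, with 4 mRNA libraries in each of the 6 groups. The series title names a heterobifunctional degrader aimed at PI3K gamma and AKT signalling, but the labels do not say which compound it is, and they give neither doses nor the origin of the replicates. Compounds are therefore compared at doses that may not match, and p-values measure the spread between libraries, which may be technical.

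Fatty acids are built in the cytosol from acetyl-CoA. ATP citrate lyase and acetyl-CoA synthetase supply acetyl-CoA, acetyl-CoA carboxylase turns it into malonyl-CoA, and fatty acid synthase joins these units into palmitate. Elongases then lengthen the chain, and desaturases place double bonds in it to make oleate and the long polyunsaturated fatty acids of membrane phospholipids. Many of these genes are known targets of the SREBP transcription factors, whose processing is promoted by PI3K, AKT and mTORC1 signalling and restrained by sterols.

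Values are normalized estimated read numbers per gene as the authors deposited them, written below simply as values. Each line's table was scaled on its own, so no level is compared between lines. The values are not divided by transcript length, so no level is compared between genes either, and a gene that rises or falls does so against the rest of its table. A gene was called changed at an adjusted p under 0.05 in limma, over all genes tested in that comparison (15288 in MOLM14, 15377 in OCI-AML2 and 14287 for differences between the lines). Estimated depth was 35.4 M to 59.0 M reads per library. The summed values of the MOLM14 ARM165 libraries (37.3 M to 41.2 M) lay below those of the MOLM14 DMSO libraries (43.3 M to 45.0 M). All 8 myeloid markers examined had a median of 10 or more in both lines. In OCI-AML2 the medians of ITGAM and MPO were only 10.8 and 13.6. The 4 erythroid and 3 adipocyte markers stayed below a median of 10. At 10 or more were also 2 of 3 hepatocyte and 2 of 3 B cell markers in MOLM14 (highest medians 27.2 and 55.8). In OCI-AML2 they were 3 of 3 and 1 of 3 (59.4 and 24.9). Of 4 T and NK cell and of 4 epithelial markers, 2 each reached it in MOLM14 and 1 each in OCI-AML2. The sum of the myeloid markers was lower with ARM165 than with DMSO, at 36760 to 43160 against 58650 to 62100 in MOLM14 and 53260 to 55870 against 97570 to 105800 in OCI-AML2. LYZ alone was a large part of these sums, with log2 changes of -2.93 in MOLM14 and -1.27 in OCI-AML2 with ARM165. It ranged from 2498 to 20810 over the MOLM14 libraries and from 18050 to 51630 over those of OCI-AML2. In OCI-AML2 the gap between the DMSO and ARM165 sums is wider than this whole range of LYZ, so the other markers together were also lower with ARM165. CEBPA (11970 to 25170) and CD68 (3817 to 9412) varied widely over the OCI-AML2 libraries too. A few high genes carry the sums, which therefore do not show whether each myeloid marker fell. In MOLM14 the sum of 4 T and NK cell markers was 1733 to 1926 with ARM165 against 516.9 to 575.4 with DMSO, and that of 4 epithelial markers was 3583 to 3880 against 2063 to 2374. Within these lists CD8A reached 1469 and KRT18 3311, while CD3D, CD3E and EPCAM reached at most 12.7, 2.05 and 11.9 in any MOLM14 library. The part of these marker shifts in the results below was not tested, and in bulk RNA fewer cells of a kind and less RNA per cell cannot be told apart.

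With ARM165, 8 of the 10 genes fell in each line. In MOLM14, ACLY, ACACA, FASN, ELOVL5, SCD, FADS1, FADS2 and SREBF1 fell and ACSS2 rose, and ELOVL6 did not pass. In OCI-AML2 the 8 that fell were ACLY, ACACA, FASN, ELOVL5, ELOVL6, SCD, FADS1 and FADS2, and ACSS2 and SREBF1 rose. The median log2 change of the 10 was -1.19 in MOLM14 and -0.92 in OCI-AML2, where the median over all genes tested was 0.03 in each line. ARM165 changed much of the transcriptome: 34.0% of genes tested were called lower and 35.5% higher in MOLM14, and 31.6% and 34.2% in OCI-AML2. With AZ2, 0 of 10 were called in MOLM14, and SCD, FADS1 and FADS2 were called lower in OCI-AML2, of which only FADS2 kept its call without the variance trend.

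**Figure D1:**
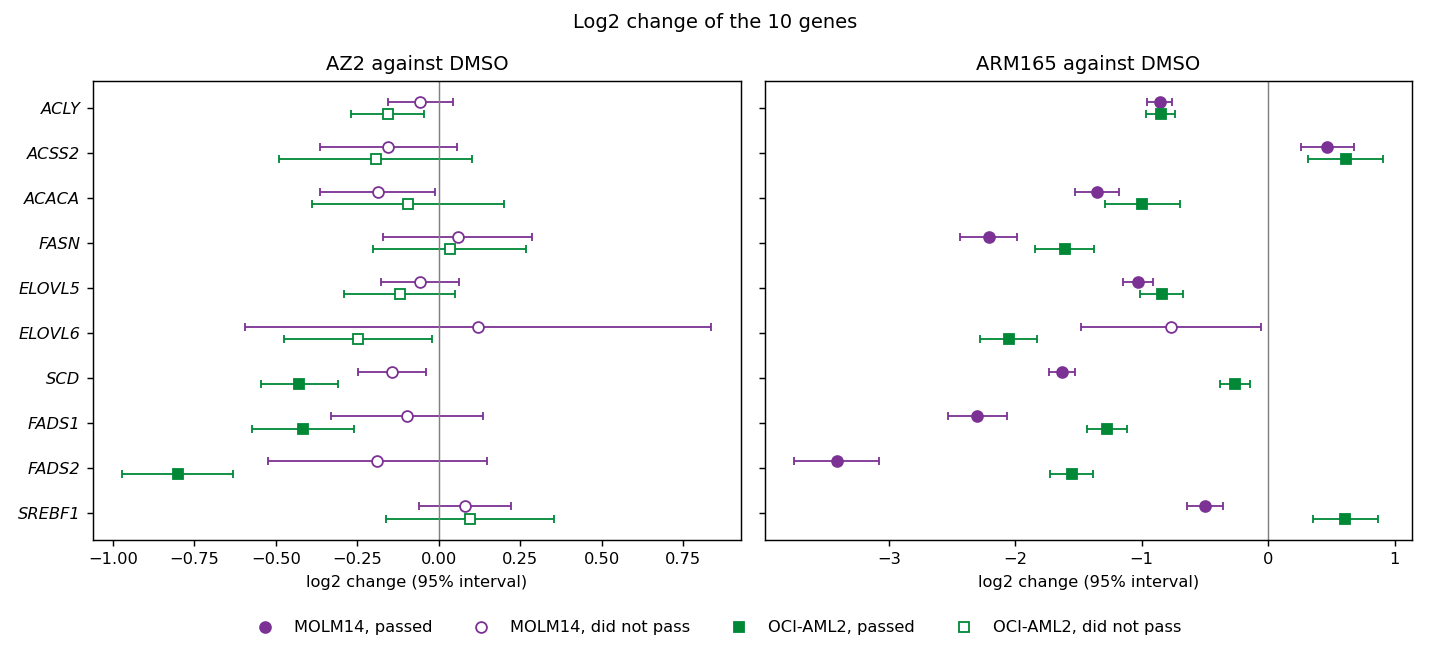
Log2 change of each gene against DMSO for AZ2 (left) and ARM165 (right), with 95% intervals, in MOLM14 (circles) and OCI-AML2 (squares); filled marks passed an adjusted p of 0.05, and the x axes of the panels differ in range. With ARM165 most genes lie below 0 in both lines, ACSS2 lies above 0 in both, and SREBF1 lies below 0 in MOLM14 and above 0 in OCI-AML2.

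Of the genes that supply acetyl-CoA, ACLY makes it from citrate exported by mitochondria. In MOLM14 its values were 9785, 9555, 10441 and 10201 with DMSO, 9897, 9421, 9831 and 9281 with AZ2, and 5310, 5214, 5852 and 5700 with ARM165. The ARM165 libraries lay below all others, while those of AZ2 and DMSO overlapped. With ARM165, ACLY fell by 0.86 on the log2 scale (SE 0.047, adjusted p = 2e-10), which is 1.81 times lower. In OCI-AML2 the ACLY means were 9114 ± 427 with DMSO, 8174 ± 376 with AZ2 and 5053 ± 232 with ARM165 (SD, n = 4). The log2 change with ARM165 was -0.85 ± 0.053 (adjusted p = 1.03e-09), and the difference between the lines was 0.01 (95% interval -0.13 to 0.15, adjusted p = 0.947). With AZ2 all 4 OCI-AML2 libraries were also below all 4 of DMSO for ACLY, but the change of -0.16 ± 0.053 did not pass (adjusted p = 0.81).

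ACSS2, which makes acetyl-CoA from free acetate, moved the other way. Its values in MOLM14 were 291, 317, 309 and 315 with DMSO, 230, 314, 287 and 281 with AZ2, and 430, 425, 428 and 422 with ARM165. In OCI-AML2 they were 258, 275, 271 and 326 with DMSO, 221, 268, 216 and 286 with AZ2, and 489, 506, 383 and 363 with ARM165. In each line every ARM165 library was above every other library. ACSS2 rose with ARM165 by 0.47 ± 0.098 in MOLM14 (adjusted p = 0.000559) and 0.61 ± 0.14 in OCI-AML2 (adjusted p = 0.00108). The changes did not differ detectably between the lines (0.14, 95% interval -0.21 to 0.49, adjusted p = 0.527). ACSS2 overlaps GGT7 on the opposite strand in GENCODE 29, and whether the counting used strand is not given in the sources used here.

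ACACA encodes acetyl-CoA carboxylase 1, the committed step of the pathway. Its values in MOLM14 were 627, 637, 648 and 639 with DMSO, 535, 576, 565 and 563 with AZ2, and 270, 257, 258 and 214 with ARM165. The 3 groups did not overlap and stood in the order DMSO, AZ2, ARM165. The AZ2 step of -0.19 ± 0.083 did not pass over all genes (adjusted p = 0.815), whereas ARM165 lowered ACACA 2.56 times (log2 change -1.35 ± 0.083, adjusted p = 8.23e-10). In OCI-AML2 the ACACA means were 416 ± 37 with DMSO, 389 ± 27.2 with AZ2 and 211 ± 45.6 with ARM165 (SD, n = 4), a log2 change with ARM165 of -0.995 ± 0.14 (adjusted p = 1.09e-05).

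FASN, which encodes the palmitate-making fatty acid synthase, fell further. In MOLM14 it stood at 1447, 1446, 1476 and 1482 with DMSO, at 1385, 1287, 1732 and 1738 with AZ2, and at 333, 259, 351 and 326 with ARM165. AZ2 libraries lay on both sides of the DMSO libraries, and the ARM165 libraries were far below both. In OCI-AML2 FASN stood at 1222, 1371, 1210 and 1343 with DMSO, 1385, 1459, 1223 and 1207 with AZ2, and 397, 541, 387 and 376 with ARM165. FASN was 4.63 times lower with ARM165 in MOLM14 (log2 change -2.21 ± 0.11, adjusted p = 5.29e-11) and 3.05 times lower in OCI-AML2 (-1.61 ± 0.11, adjusted p = 2.99e-09). The fall was smaller in OCI-AML2 by 0.60 (95% interval 0.27 to 0.93, adjusted p = 0.00385). For ACACA the same difference, 0.36 (95% interval 0.03 to 0.69), did not pass (adjusted p = 0.0779, and 0.0117 without OCI-AML2 ARM165 replicate 2). FASN showed no change with AZ2 that could be detected in MOLM14 (0.06, 95% interval -0.17 to 0.28) or OCI-AML2 (0.03, 95% interval -0.20 to 0.27).

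**Figure D2:**
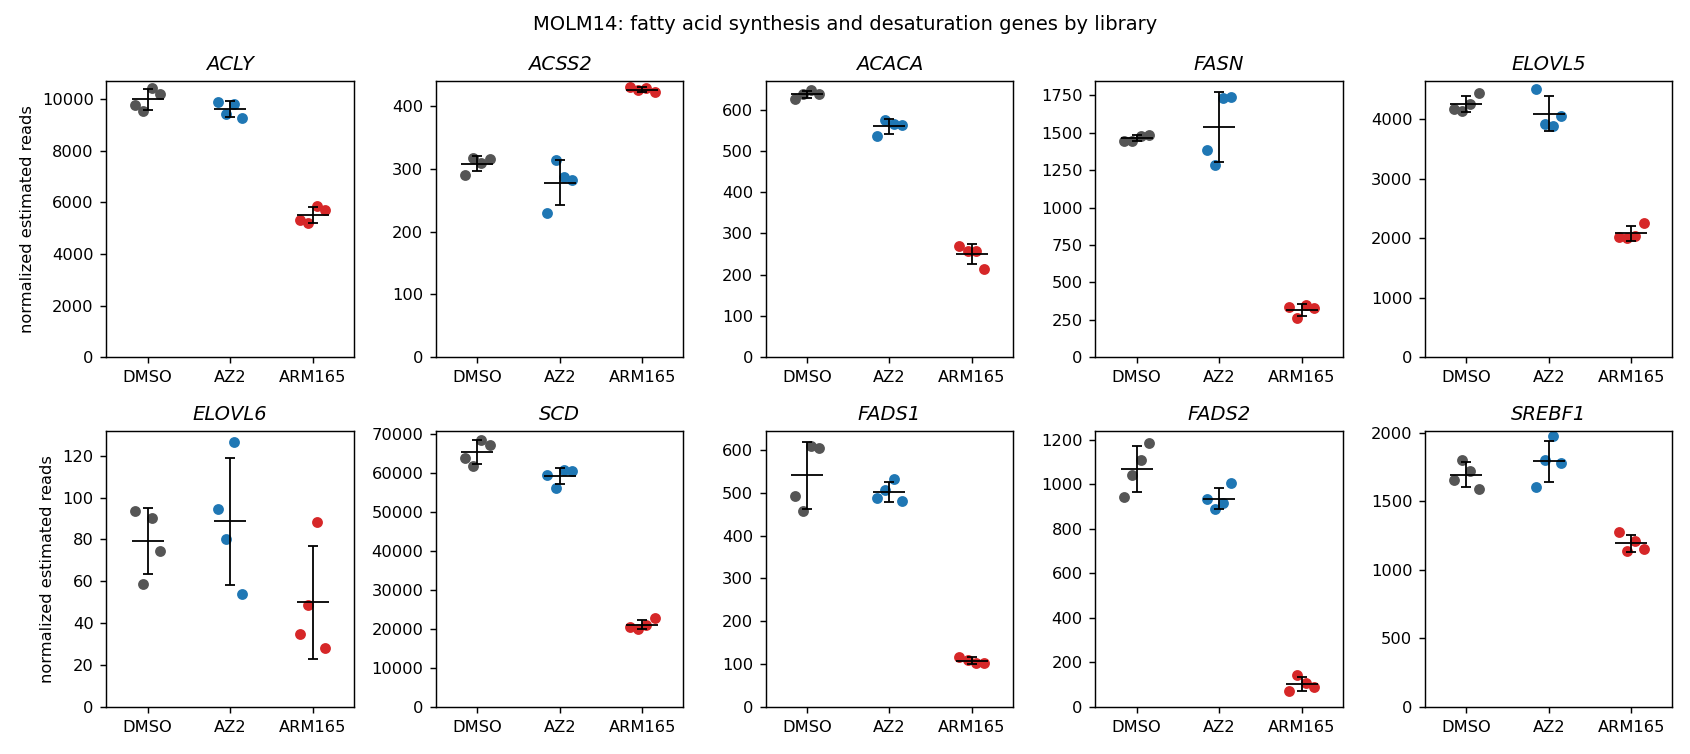
Values of the 10 genes in the 12 MOLM14 libraries; each point is 1 library, the long dash is the group mean and the bars show 1 SD (n = 4). For FASN, SCD, FADS1 and FADS2 the 4 ARM165 libraries lie far below the DMSO and AZ2 libraries, for ACSS2 they lie above them, and for ELOVL6 the groups overlap.

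The desaturases held the largest fall of the 10 genes in MOLM14 (FADS2) and the smallest of the 8 falls in OCI-AML2 (SCD). SCD, FADS1 and FADS2 encode the delta-9, delta-5 and delta-6 desaturases, the first making oleate and palmitoleate and the other two acting on polyunsaturated chains. SCD lies at chr10:100347124-100364834 on the plus strand. FADS1 (chr11:61799625-61829318, minus strand) and FADS2 (chr11:61792980-61867354, plus strand) are neighbours on opposite strands whose annotated transcripts overlap (GENCODE 29, GRCh38). The starts given by RefSeq for FADS1 and FADS2 are 599 or 800 bases apart, depending on the FADS2 start used. SREBF1, the gene of SREBP-1, lies at chr17:17810399-17837002 on the minus strand. The stretches before the start sites of these 4 genes are shown because they are 4 of the 6 genes whose changes with ARM165 differed between the lines; they come from RefSeq upstream windows (GRCh38.p14), hold no exon annotated by GENCODE 29 on either strand, and run 5′ to 3′ on the gene's strand. Those of SCD and SREBF1 lie outside the annotated gene, and those of FADS1 and FADS2 lie inside the annotated span of their gene, since longer annotated transcripts start farther out. Capitals mark the CCAAT box (CCAAT) and the GC box (GGGCGG), each on either strand. The FADS2 stretch lies before the later RefSeq start of the gene (61816404) but runs past the earlier start (61816203). Its marked GC box lies after that earlier start.
SCD, chr10:100346983-100347123, plus strand: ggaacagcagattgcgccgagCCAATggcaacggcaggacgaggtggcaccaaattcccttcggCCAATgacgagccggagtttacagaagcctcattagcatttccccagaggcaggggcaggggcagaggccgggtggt
FADS1, chr11:61817198-61817253, minus strand: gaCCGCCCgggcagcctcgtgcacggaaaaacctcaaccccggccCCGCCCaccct
FADS2, chr11:61816154-61816255, plus strand: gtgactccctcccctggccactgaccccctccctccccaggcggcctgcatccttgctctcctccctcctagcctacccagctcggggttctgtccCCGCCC
SREBF1, chr17:17837003-17837236, minus strand: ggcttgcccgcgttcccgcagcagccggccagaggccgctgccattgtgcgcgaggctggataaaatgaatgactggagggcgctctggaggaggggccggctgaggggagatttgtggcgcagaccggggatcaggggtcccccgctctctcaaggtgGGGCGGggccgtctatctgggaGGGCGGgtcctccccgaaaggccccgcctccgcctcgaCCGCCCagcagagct

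RefSeq windows of 250 bases upstream were found for 9 of the 10 genes, in 14 windows. FASN had no window and was not searched. The windows of ACLY overlap, as do those of FADS2, and the ACLY sites in the overlap are counted in both windows. The CCAAT box was present in 7 of these 14 windows, from 5 genes, and in 32% of all 35116 windows. The GC box was present in 11 of 14 windows, from 8 genes, and in 42.6% of all windows. The E-box CACGTG, searched on both strands, was present in the ELOVL5 window alone among the 14 and in 6.34% of all windows. The sterol regulatory element letters TCACNCCAC were present in 0 of 14 windows and in 0.883% of all windows. These matches only describe the letters in the windows. The motifs do not overlap one another in the 4 stretches printed.

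In MOLM14, SCD stood at 63747, 61883, 68394 and 67214 with DMSO, at 59417, 56084, 60651 and 60372 with AZ2, and at 20590, 20032, 20959 and 22694 with ARM165. All AZ2 libraries lay below all DMSO libraries, and all ARM165 libraries below both. In OCI-AML2, SCD stood at 26584, 26586, 23138 and 23688 with DMSO, at 18890, 19164, 18568 and 17574 with AZ2, and at 21578, 20265, 21262 and 20043 with ARM165. There the order was different: the AZ2 libraries were the lowest, those of ARM165 lay between, and no groups overlapped. ARM165 lowered SCD 3.10 times in MOLM14 (log2 change -1.63 ± 0.049, adjusted p = 3.9e-13) but 1.20 times in OCI-AML2 (-0.26 ± 0.055, adjusted p = 0.00058). The difference of 1.37 between these changes passed the test (95% interval 1.22 to 1.52, adjusted p = 4.53e-13). AZ2 lowered SCD in OCI-AML2 (log2 change -0.43 ± 0.055, adjusted p = 0.00335, and 0.0517 without the variance trend, where the call is lost), while in MOLM14 the change of -0.14 ± 0.049 did not pass (adjusted p = 0.677). SCD was higher with ARM165 than with AZ2 in OCI-AML2 by 0.16 (SE 0.055, adjusted p = 0.0164), a call that was lost without OCI-AML2 ARM165 replicate 1 (adjusted p = 0.0506).

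FADS1 values in MOLM14 were 493, 457, 611 and 605 with DMSO, 488, 508, 533 and 480 with AZ2, and 117, 111, 103 and 103 with ARM165. In OCI-AML2 they were 1038, 1045, 881 and 953 with DMSO, 736, 748, 717 and 724 with AZ2, and 396, 410, 406 and 402 with ARM165. In MOLM14 the AZ2 and DMSO libraries overlapped, and in OCI-AML2 the 3 groups stood apart in the order DMSO, AZ2, ARM165. FADS1 was 4.93 times lower with ARM165 in MOLM14 (log2 change -2.30 ± 0.11, adjusted p = 4.35e-11) and 2.42 times lower in OCI-AML2 (-1.27 ± 0.073, adjusted p = 4.28e-10). The fall in OCI-AML2 was smaller by 1.03 (95% interval 0.77 to 1.28, adjusted p = 3.77e-07). The AZ2 change of -0.42 ± 0.073 in OCI-AML2 passed narrowly (adjusted p = 0.0423). It was lost in 11 of 12 fits that each left out 1 library, all but the one without DMSO replicate 3, with adjusted p up to 0.199.

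FADS2 fell the furthest of the 10 genes in MOLM14. Its values there were 941, 1042, 1110 and 1185 with DMSO, 935, 888, 917 and 1003 with AZ2, and 71.3, 141, 109 and 87.6 with ARM165. In OCI-AML2 they were 1687, 1603, 1611 and 1529 with DMSO, 956, 948, 851 and 936 with AZ2, and 551, 599, 572 and 471 with ARM165. The OCI-AML2 groups were separate in steps, whereas in MOLM14 AZ2 overlapped DMSO and only ARM165 stood apart. ARM165 lowered FADS2 10.7 times in MOLM14 (log2 change -3.41 ± 0.16, adjusted p = 3.32e-11) and 2.94 times in OCI-AML2 (-1.56 ± 0.080, adjusted p = 1.15e-10), a difference of 1.86 (95% interval 1.47 to 2.24, adjusted p = 2.29e-08). AZ2 lowered it 1.74 times in OCI-AML2 (-0.80 ± 0.080, adjusted p = 0.000453), and the change in MOLM14 was -0.19 (95% interval -0.53 to 0.15, adjusted p = 0.94). FADS2 also overlaps FEN1 on the same strand and FADS1 on the opposite one, so reads in the shared stretches may be assigned with uncertainty. FEN1, named after its values were seen, fell with ARM165 in both lines, by a log2 change of -1.97 ± 0.055 in MOLM14 (adjusted p = 2.02e-13) and -2.16 ± 0.059 in OCI-AML2 (adjusted p = 1.16e-13).

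The desaturases have relatives outside the 10 genes. FADS3, the third gene of the FADS cluster, rose with ARM165 while its neighbours fell. Its values in MOLM14 were 42.7, 28.2, 28.7 and 29.5 with DMSO and 636, 553, 637 and 651 with ARM165, a log2 change of 4.24 ± 0.24 (adjusted p = 2.61e-10). In OCI-AML2 they were 151, 139, 61.4 and 99.8 with DMSO and 1427, 1385, 1485 and 1292 with ARM165, a log2 change of 3.70 ± 0.26 (adjusted p = 3.7e-09), read after the MOLM14 result was known. SCD5, the second human stearoyl-CoA desaturase gene and chosen after its values were seen, fell with ARM165 in both lines, with log2 changes of -1.44 ± 0.13 in MOLM14 (adjusted p = 6.95e-08) and -1.64 ± 0.12 in OCI-AML2 (adjusted p = 5.91e-09). The SCD5 change did not differ detectably between the lines (-0.20 ± 0.18, adjusted p = 0.392), whereas that of SCD did.

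**Figure D3:**
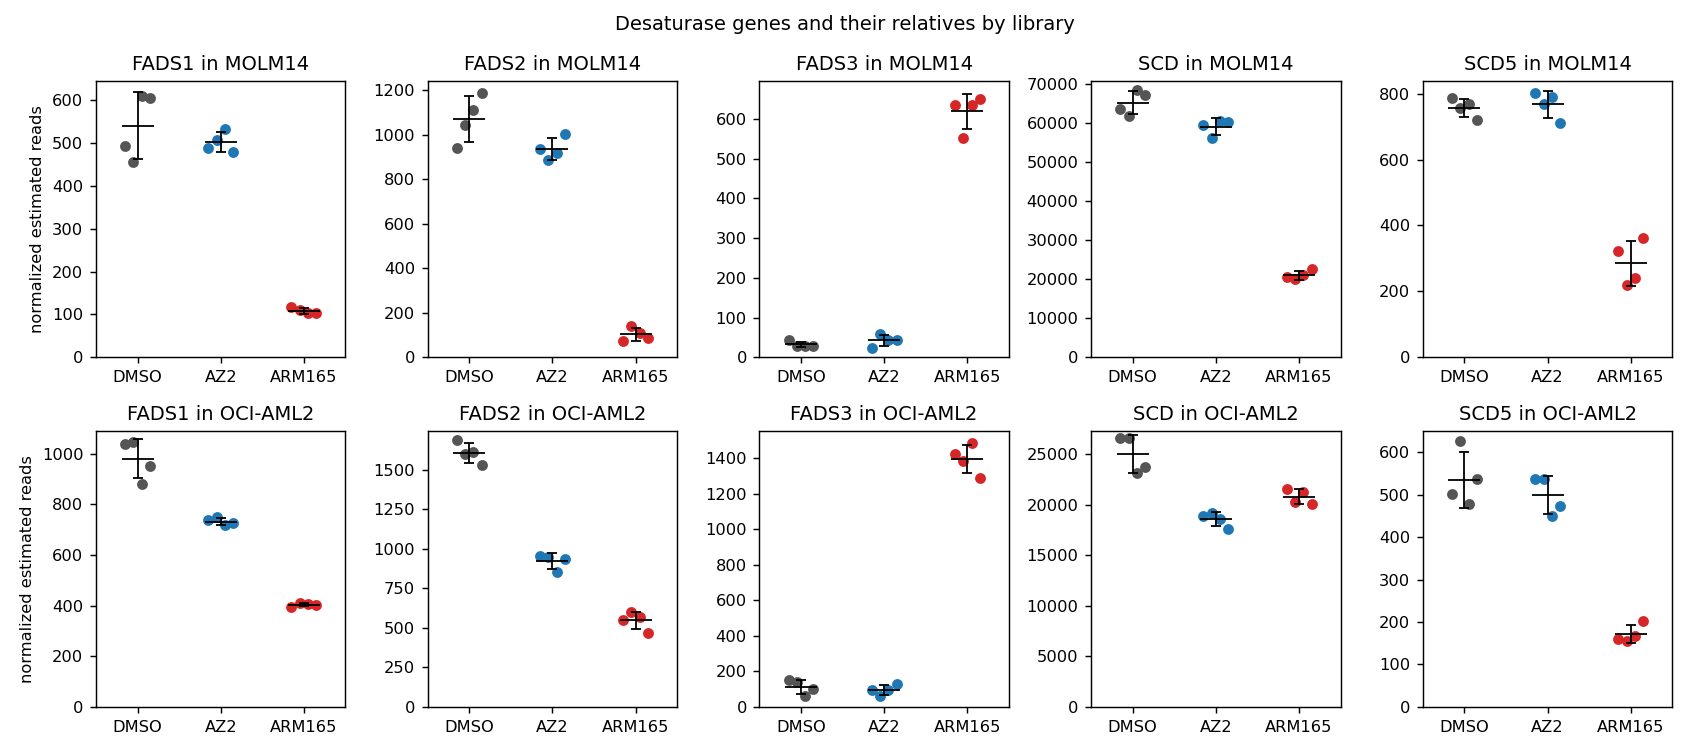
Values of FADS1, FADS2, FADS3, SCD and SCD5 in the 12 libraries of MOLM14 (top) and OCI-AML2 (bottom); each point is 1 library, the long dash is the group mean and the bars show 1 SD (n = 4). FADS1 and FADS2 are lowest and FADS3 highest with ARM165 in both lines, while SCD is lowest with AZ2 in OCI-AML2.

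Of the elongases, ELOVL5 lengthens polyunsaturated chains made by the FADS enzymes. It stood at 4177, 4140, 4263 and 4445 with DMSO, 4517, 3919, 3890 and 4053 with AZ2, and 2027, 2001, 2036 and 2258 with ARM165 in MOLM14. The ARM165 libraries were separate from the rest. In OCI-AML2 its means were 2734 ± 206 with DMSO, 2513 ± 147 with AZ2 and 1527 ± 159 with ARM165 (SD, n = 4). The log2 change of ELOVL5 with ARM165 was -1.03 ± 0.056 in MOLM14 (adjusted p = 1.8e-10) and -0.84 ± 0.080 in OCI-AML2 (adjusted p = 1.51e-07), both falls, and the difference of 0.19 (95% interval -0.01 to 0.39) did not pass (adjusted p = 0.13, and 0.0204 without OCI-AML2 ARM165 replicate 2).

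ELOVL6 lengthens palmitate to stearate, the substrate of SCD. Its values in MOLM14 were low and scattered, at 93.7, 58.8, 90.0 and 74.3 with DMSO, 94.4, 80.1, 127 and 54.0 with AZ2, and 34.9, 48.6, 88.3 and 28.1 with ARM165. ARM165 replicate 3 lay among the DMSO libraries. In OCI-AML2 ELOVL6 stood at 865, 774, 1023 and 969 with DMSO, 699, 726, 720 and 909 with AZ2, and 224, 221, 221 and 203 with ARM165, which were all below the others. It was 4.15 times lower with ARM165 there (log2 change -2.05 ± 0.11, adjusted p = 1.28e-10). In MOLM14 the change of -0.77 ± 0.33 just missed the threshold (adjusted p = 0.0529), and it passed in 8 of 21 alternatives, among them the fit without ARM165 replicate 3 (-1.08, adjusted p = 0.00494). The fits without AZ2 replicate 3, AZ2 replicate 4 or DMSO replicate 2 also passed (adjusted p = 0.0478, 0.0425 and 0.0396). ELOVL6 was the only one of the 10 genes whose change with ARM165 was lower in OCI-AML2 than in MOLM14 (-1.28, 95% interval -2.03 to -0.54, adjusted p = 0.0058).

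SREBF1 encodes SREBP-1, the transcription factor that drives many of these genes, and its mRNA changed in opposite directions. In MOLM14 it stood at 1656, 1799, 1723 and 1586 with DMSO, 1606, 1798, 1971 and 1781 with AZ2, and 1274, 1138, 1208 and 1152 with ARM165. In OCI-AML2 it stood at 1000, 688, 911 and 1103 with DMSO, 853, 941, 1042 and 1077 with AZ2, and 1434, 1372, 1475 and 1297 with ARM165. The ARM165 libraries were the lowest 4 in MOLM14 and the highest 4 in OCI-AML2, and AZ2 overlapped DMSO in both lines. With ARM165, SREBF1 fell by 0.50 in MOLM14 (SE 0.066, adjusted p = 5.7e-06) and rose by 0.61 in OCI-AML2 (SE 0.12, adjusted p = 0.000345). The difference between the lines was 1.11 (95% interval 0.81 to 1.41, adjusted p = 1.18e-06). The table gives 1 value for the gene, so SREBP-1a and SREBP-1c transcripts are not told apart, and SREBF1 overlaps RAI1 on the opposite strand.

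**Figure D4:**
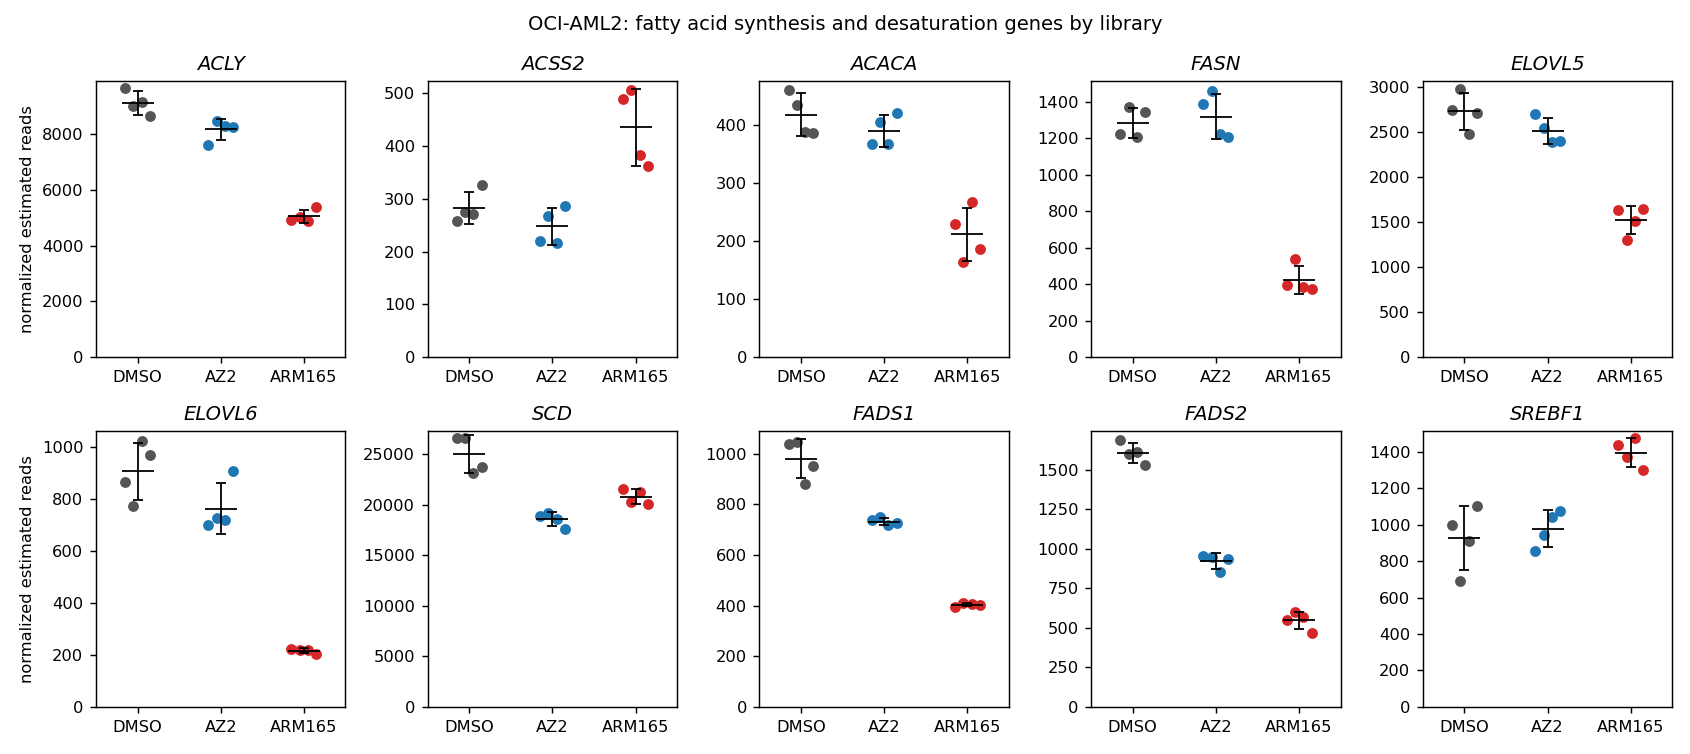
Values of the 10 genes in the 12 OCI-AML2 libraries; each point is 1 library, the long dash is the group mean and the bars show 1 SD (n = 4). FADS1 and FADS2 step down from DMSO to AZ2 to ARM165, SCD is lowest with AZ2, and SREBF1 and ACSS2 are highest with ARM165.

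Between the lines, 5 of the 10 genes had a higher change with ARM165 in OCI-AML2 (FASN, SCD, FADS1, FADS2 and SREBF1), ELOVL6 had a lower one, and 4 did not pass. Over all genes 24.3% were called higher and 18.1% lower in this comparison. Leaving out OCI-AML2 ARM165 replicate 2 raised the number called from 6 to 8, by adding ACACA and ELOVL5. For AZ2, 0 of 10 differences between the lines passed in limma, with 3 at an unadjusted p under 0.05. Over all genes 0.0280% were called lower and 0% higher, and 5.22% had an unadjusted p under 0.05. The 3 of the 10 genes were SCD (-0.29 ± 0.072, adjusted p = 0.489), FADS1 (-0.32 ± 0.12, adjusted p = 0.848) and FADS2 (-0.61 ± 0.19, adjusted p = 0.64). The AZ2 falls called in OCI-AML2 are therefore not shown to be larger than the changes in MOLM14.

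In MOLM14, AZ2 gave 0 calls among the 10 genes in limma, with 2 (ACACA and SCD) at an unadjusted p under 0.05. The background in that comparison was 0% called lower and 0% higher over all genes, and 5.88% of them had an unadjusted p under 0.05. The changes ranged from -0.19 for FADS2 to 0.12 for ELOVL6, and 7 of 10 were below 0, against 49.5% of all genes. In OCI-AML2 the 3 genes called lower with AZ2 stand beside a background of 0.104% lower and 0.00650% higher. The other 7 changes lay between -0.25 for ELOVL6 and 0.10 for SREBF1. In that line 8 of the 10 were below 0, against 56.2% of all genes. An unadjusted p under 0.05 in limma was reached by 5 of the 10 and by 4.77% of all genes.

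ARM165 was also set directly against AZ2, with the same ARM165 libraries as above. In MOLM14, 9 genes were called lower with ARM165 than with AZ2, and ACSS2 was called higher (0.62 ± 0.098, adjusted p = 3.71e-05), against 34.0% lower and 36.1% higher over all genes. ELOVL6, whose libraries overlapped, was the weakest of the 9 (-0.89 ± 0.33, adjusted p = 0.0273), and its call was lost without ARM165 replicate 1 or 4, or AZ2 replicate 1 or 3 (adjusted p up to 0.0921). In OCI-AML2, 7 genes were lower with ARM165 than with AZ2 and 3 were higher, against 31.4% lower and 34.5% higher over all genes. The 3 were ACSS2 (0.81 ± 0.14, adjusted p = 9.31e-05), SREBF1 (0.52 ± 0.12, adjusted p = 0.00145) and SCD. The largest difference in OCI-AML2 was that of ELOVL6 (-1.80 ± 0.11, adjusted p = 5.88e-10), followed by FASN (-1.64 ± 0.11, adjusted p = 2.42e-09).

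Genes around the pathway were read from lists chosen with earlier results of these data known, by count and median. The counts stand against shares over all genes tested with ARM165 of 35.5% higher and 34.0% lower in MOLM14. In OCI-AML2 these shares were 34.2% and 31.6%. Among 7 genes of acetyl-CoA and NADPH supply, ARM165 raised 3 and lowered 3 in MOLM14 (median 0.11) and raised 3 and lowered 4 in OCI-AML2 (median -0.31). ME1, the cytosolic malic enzyme that makes NADPH, rose from 1351 ± 174 to 7217 ± 600 in OCI-AML2 (SD, n = 4; log2 change 2.42 ± 0.087, adjusted p = 2.24e-12) and rose by 1.78 in MOLM14 (SE 0.060, adjusted p = 1.29e-12). ACSS1, the mitochondrial acetyl-CoA synthetase, fell in both lines (-1.44 ± 0.068 in MOLM14, adjusted p = 4.13e-11, and -1.55 ± 0.069 in OCI-AML2, adjusted p = 2.3e-11), opposite to ACSS2. SLC25A1, the mitochondrial citrate carrier, fell by 1.56 in MOLM14 (SE 0.086, adjusted p = 2.33e-10). Its OCI-AML2 change, read after values were seen, was smaller (-0.31 ± 0.078, adjusted p = 0.00213), and the difference of 1.24 between the lines passed (SE 0.12, adjusted p = 1.72e-08).

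Of 8 further synthesis enzymes, mostly mitochondrial, 1 rose and 2 fell in MOLM14 and 3 rose and 3 fell in OCI-AML2. Shares over all genes were 35.5% higher and 34.0% lower in MOLM14, and 34.2% and 31.6% in OCI-AML2. OLAH, the thioesterase that releases medium chains from fatty acid synthase, was at 0.321 to 9.61 with DMSO and 370 to 547 with ARM165 in MOLM14, and at 4.51 to 30.6 and 296 to 424 in OCI-AML2 (adjusted p = 1.11e-08 and 8.58e-07). Its DMSO values are too low for a stable fold change. MCAT, which loads malonyl groups in mitochondria, fell in both lines, by a log2 change of -1.28 ± 0.12 in MOLM14 (adjusted p = 1.08e-07) and -0.80 ± 0.079 in OCI-AML2 (adjusted p = 2.13e-07). MECR, the last enzyme of that mitochondrial cycle, fell by 0.92 in MOLM14 (SE 0.075, adjusted p = 2.52e-08), and ACSF3, a malonyl-CoA synthetase, rose by 0.59 in OCI-AML2 (SE 0.10, adjusted p = 8.1e-05). MECR also fell in OCI-AML2 (-0.34 ± 0.11, adjusted p = 0.0156), and ACSF3 did not pass in MOLM14 (-0.04 ± 0.086, adjusted p = 0.731).

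Among 12 other elongation and desaturation enzymes tested in each line, 11 of them tested in both, 2 rose and 5 fell with ARM165 in MOLM14 (median -0.20), and 3 rose and 7 fell in OCI-AML2 (median -0.80). Of all genes, 35.5% rose and 34.0% fell in MOLM14, and 34.2% and 31.6% in OCI-AML2. ELOVL3, an elongase of saturated and monounsaturated chains, fell from 566 ± 33.3 to 137 ± 17.9 in MOLM14 and from 1170 ± 49.9 to 106 ± 33.9 in OCI-AML2 (SD, n = 4). Its log2 changes were -2.04 ± 0.11 (adjusted p = 1.71e-10) and -3.50 ± 0.15 (adjusted p = 1.95e-11). TECR, the reductase of the last elongation step, fell in both lines, by a log2 change of -1.04 ± 0.066 in MOLM14 (adjusted p = 1.22e-09) and -1.73 ± 0.083 in OCI-AML2 (adjusted p = 5.6e-11). HACD3, a dehydratase of the same cycle, fell by 1.38 in OCI-AML2 (SE 0.057, adjusted p = 1.07e-11) and by 0.91 in MOLM14 (SE 0.059, adjusted p = 1.52e-09). Like ELOVL6, ELOVL3 fell further in OCI-AML2 than in MOLM14 (-1.45 ± 0.20, adjusted p = 1.97e-06), a comparison made after the values were seen.

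The 14 tested genes that control SREBP, LXR and ChREBP activity were split: 6 rose and 6 fell with ARM165 in MOLM14, and 4 rose and 7 fell in OCI-AML2. All genes tested were split too, with 35.5% higher and 34.0% lower in MOLM14, and 34.2% and 31.6% in OCI-AML2. SREBF2, the gene of the sterol-directed SREBP-2, fell in both lines (-0.60 ± 0.054 in MOLM14, adjusted p = 6.58e-08, and -0.65 ± 0.074 in OCI-AML2, adjusted p = 1.06e-06), also in the line where SREBF1 rose. NR1H2, which encodes the oxysterol receptor LXR beta, rose by 0.97 in MOLM14 (SE 0.052, adjusted p = 1.75e-10) and 0.99 in OCI-AML2 (SE 0.065, adjusted p = 2.12e-09). INSIG1, an SREBP target that holds SREBP in the endoplasmic reticulum, fell by 1.44 with ARM165 in MOLM14 (SE 0.058, adjusted p = 7.06e-12). With ARM165 in OCI-AML2, read after values were seen, it fell less (-0.32 ± 0.063, adjusted p = 0.000309), and the difference of 1.12 between the lines passed (SE 0.085, adjusted p = 2.45e-10). With AZ2 in OCI-AML2, INSIG1 was the only gene of this list called (-0.64 ± 0.063, adjusted p = 0.000453), against 0.104% lower and 0.00650% higher over all genes. Its AZ2 change, read after values were seen, was lower in OCI-AML2 than in MOLM14 (-0.49 ± 0.085, adjusted p = 0.0388). In that comparison 0.0280% of all genes were called lower, and the number called in this list ranged from 0 to 1 over the alternatives. MID1IP1, a partner of acetyl-CoA carboxylase, fell by 0.43 with ARM165 in OCI-AML2 (SE 0.064, adjusted p = 2.38e-05). Its change in MOLM14 did not pass (-0.04 ± 0.069, adjusted p = 0.637).

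Sterol synthesis genes, the other branch under SREBP, fell in nearly all cases with ARM165: 19 of 22 tested in MOLM14 with 0 higher (median -1.08), and 20 of 22 in OCI-AML2 with 1 higher (median -0.95). Beside this, 34.0% of all genes were lower and 35.5% higher in MOLM14, and 31.6% and 34.2% in OCI-AML2. ACAT2, which joins 2 acetyl-CoA units, fell in MOLM14 (-1.58 ± 0.063, adjusted p = 6.73e-12) and OCI-AML2 (-1.86 ± 0.068, adjusted p = 3.07e-12). FDPS, a farnesyl diphosphate synthase, fell likewise (-1.32 ± 0.055, adjusted p = 9.85e-12, and -1.43 ± 0.058, adjusted p = 7.66e-12). With AZ2, 9 of 22 fell in OCI-AML2 (median -0.44) and 0 of 22 were called in MOLM14 in limma (median -0.07). The share of all genes called lower with AZ2 was 0.104% in OCI-AML2 and 0% in MOLM14. The 9 became 3 without the variance trend and ranged from 5 to 9 when 1 library was left out. Among them were ACAT2 (-0.55 ± 0.068, adjusted p = 0.00273), FDFT1, the squalene synthase gene (-0.50 ± 0.062, adjusted p = 0.00273), and HMGCS1, an early mevalonate enzyme (-0.83 ± 0.087, adjusted p = 0.000593). The AZ2 change was called lower in OCI-AML2 than in MOLM14 for 3 of the 22 and higher for 0, against 0.0280% and 0% of all genes. The 3 were HMGCS1 (-0.66 ± 0.10, adjusted p = 0.0174), IDI1 (-0.53 ± 0.094, adjusted p = 0.0388) and FDFT1 (-0.50 ± 0.092, adjusted p = 0.048).

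Genes that use fatty acids were mixed. Of 16 acyl-CoA synthetases and glycerolipid synthesis genes, 3 rose and 6 fell with ARM165 in MOLM14 (median -0.23), and 5 rose and 6 fell in OCI-AML2 (median -0.22). The shares over all genes were 35.5% higher and 34.0% lower in MOLM14, and 34.2% and 31.6% in OCI-AML2. AGPAT2, an acyltransferase of phosphatidic acid synthesis, fell in both lines, by a log2 change of -0.87 ± 0.071 in MOLM14 (adjusted p = 2.53e-08) and -0.78 ± 0.059 in OCI-AML2 (adjusted p = 1.14e-08). DGAT1, which makes triacylglycerol, fell by 0.89 in MOLM14 (SE 0.074, adjusted p = 3.03e-08), and so did ACSL5, a long-chain acyl-CoA synthetase (-0.85 ± 0.076, adjusted p = 6.79e-08). Both also fell in OCI-AML2, DGAT1 by 0.44 (SE 0.074, adjusted p = 6.57e-05) and ACSL5 by 0.86 (SE 0.084, adjusted p = 2.05e-07). In OCI-AML2 the synthetase gene ACSL1 rose by 1.92 (SE 0.081, adjusted p = 1.21e-11) and MBOAT7, which places arachidonate in phosphatidylinositol, fell by 0.79 (SE 0.068, adjusted p = 4.99e-08). ACSL1 rose in MOLM14 too (1.62 ± 0.15, adjusted p = 8.78e-08), where the change of MBOAT7 did not pass (-0.11 ± 0.069, adjusted p = 0.153).

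Of 17 fatty acid oxidation genes, 5 rose and 7 fell with ARM165 in MOLM14 (median -0.11), and 8 rose and 4 fell in OCI-AML2 (median -0.01). All genes gave 35.5% higher and 34.0% lower in MOLM14, and 34.2% and 31.6% in OCI-AML2. CPT1A, the carnitine transferase that admits long chains to mitochondria, fell by 0.57 in MOLM14 (SE 0.075, adjusted p = 5.22e-06), and ECHS1, an enoyl-CoA hydratase, fell by 0.78 (SE 0.060, adjusted p = 1.22e-08). Both fell in OCI-AML2 as well, CPT1A by 0.77 (SE 0.067, adjusted p = 5.4e-08) and ECHS1 by 0.22 (SE 0.055, adjusted p = 0.00212). ACADVL, the very-long-chain acyl-CoA dehydrogenase, rose by 1.34 in OCI-AML2 (SE 0.057, adjusted p = 1.34e-11), where the dehydrogenase gene HADH fell by 1.10 (SE 0.074, adjusted p = 2.72e-09). Their MOLM14 changes had the same directions, at 0.34 for ACADVL (SE 0.057, adjusted p = 7.51e-05) and -0.30 for HADH (SE 0.0545, adjusted p = 0.000154). With AZ2, no gene of the lists of acetyl-CoA supply, further synthesis, elongation, glycerolipid synthesis or oxidation was called in either line.

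**Figure D5:**
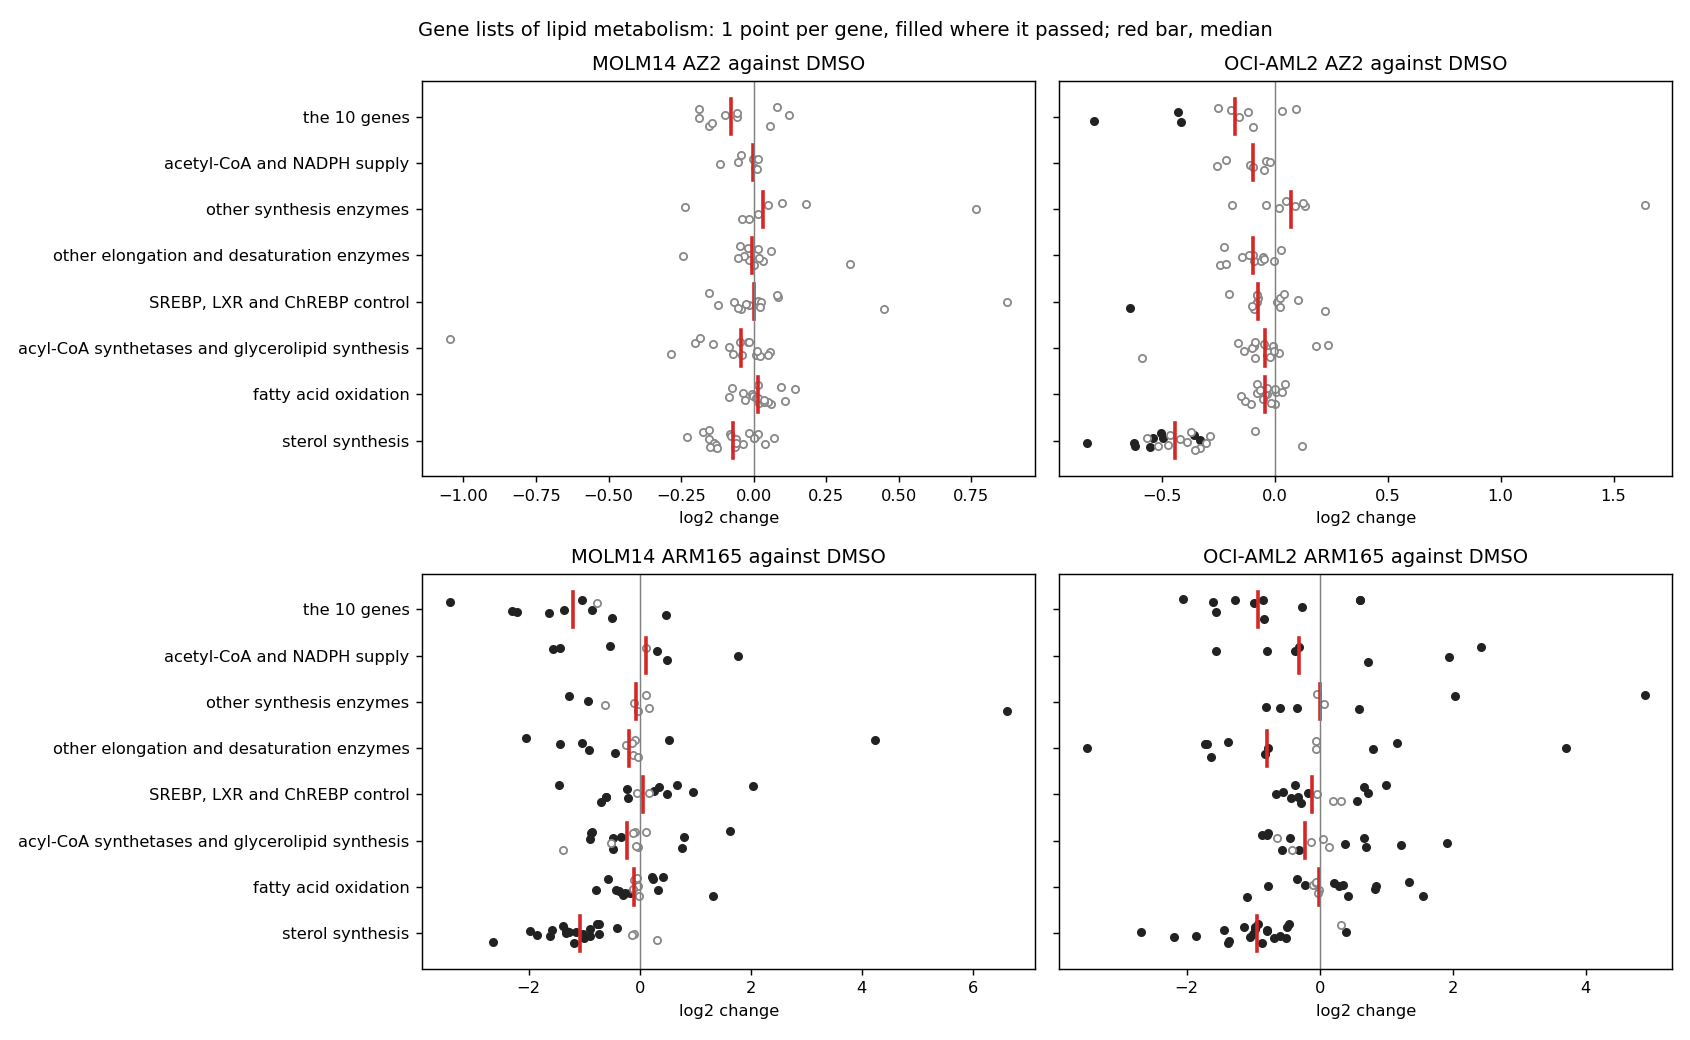
Log2 change against DMSO for the 10 genes and for each list around the pathway, in 4 panels by line and compound; each point is 1 gene, filled where it passed an adjusted p of 0.05, the red bar is the list median, and the panels of AZ2 and ARM165 differ in the range of the x axis. With ARM165 the medians of the 10 genes (-1.19 and -0.92) and of sterol synthesis (-1.08 and -0.95) lie farthest below 0, and the fatty acid oxidation genes spread around 0.

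The genes whose 4 changes against DMSO (AZ2 and ARM165 in each line) lay closest to those of SCD were CMPK2, SLC25A1, INSIG1, SQLE and HMOX2, among 11279 genes with a mean of at least 50 in both lines. The measure was the root mean square difference over the 4 log2 changes, which share their DMSO libraries within a line. It was 0.07 for CMPK2, 0.14 for SLC25A1, 0.15 for INSIG1, 0.15 for SQLE and 0.20 for HMOX2, against a median of 0.92 over all genes compared. For FADS2 the closest were JAML at 0.34, S100A9 at 0.43, CD180 at 0.44, MPEG1 at 0.46 and LYZ at 0.47, against a median of 1.94. The changes of CMPK2 with ARM165 were -1.72 in MOLM14 and -0.26 in OCI-AML2, and those of JAML were -3.48 and -1.32. With AZ2 in OCI-AML2 the changes of the 5 genes closest to FADS2 ranged from -0.17 for CD180 to -0.05 for S100A9, and that of FADS2 was -0.80.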

How the data were processed

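Libraries of poly(A) mRNA were made with a stranded kit and quantified with kallisto, per the labels' protocols and the submitters' processing notes; its version, the genome build, the annotation, the summing to genes and the scaling are not given in the sources used here. What the authors deposited is a signal value for every gene symbol, an estimated count after normalization, with each line's 12 libraries in a table of their own. Only 15.1 to 15.9% of values came within 0.01 of a whole number of reads, so no count model was used, and depth was estimated from the value of 1 read. Libraries were grouped by their labels, and 0 pairs were identical.

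Values were taken as log2(value + 1), so changes of low genes are understated. A gene entered the fit of a line if 4 or more libraries reached 10, which all 10 genes did in both lines. limma 3.58.1 (R 4.3.3) was fitted to all 12 libraries of a line with 1 mean per group, a variance trend and empirical Bayes moderation; differences between lines came from 1 fit to all 24 libraries over genes kept in both. P-values were Benjamini-Hochberg adjusted over all genes tested, intervals are 95%, and ± after a change is its standard error. The fit was tested on simulated counts in which far fewer genes changed with ARM165 than were called here. That test therefore does not cover so broad a change. Alternatives were other pseudocounts, filters, scalings, no variance trend, a replicate block, only the 2 groups compared, and each library left out; for the lists and their named genes these were added after the data were seen. The 10 genes were named in every comparison, from each list up to 3 called genes with the smallest adjusted p per comparison with DMSO, and 5 genes closest to SCD and to FADS2. Some genes this rule picks are not reported here. The members and lists were chosen with earlier results of these data known. Python 3.11.15 and matplotlib 3.10.9 drew the plots.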

Additional observations from a re-analysis of the deposited data

Results flagged for a closer look

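In 4 of the 60 groups of 4 libraries (10 genes in 6 groups), 1 library stood far from the other 3, by a Dixon test that chance passes in about 1 group in 20. For ELOVL5 in MOLM14 with ARM165, replicate 4 was at 2258 and the next library at 2036. For FASN in OCI-AML2 with ARM165, replicate 2 was at 541 and the next at 397. For ELOVL6 in OCI-AML2, replicate 4 with AZ2 was at 909 (next 726) and replicate 4 with ARM165 was at 203 (next 221).

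The change with ARM165 differed between the lines for 6 genes in limma's test of the difference (OCI-AML2 minus MOLM14). Such differences were common, with 24.3% of all genes called higher and 18.1% lower. The differences in log2 change were 0.60 for FASN, -1.28 for ELOVL6, 1.37 for SCD, 1.03 for FADS1, 1.86 for FADS2 and 1.11 for SREBF1. For SREBF1 the changes had opposite signs, and for the other 5 both were below 0.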

How the results depend on the processing

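Of 1900 values of the 10 genes under alternatives, 1869 kept their call, 21 lost it, 10 gained one and 0 reversed. The number called in OCI-AML2 with AZ2 was 3 and fell to 1 (FADS2) without the variance trend, where SCD and FADS1 both had an adjusted p of 0.0517; the cause was not tested. With 1 library left out it ranged from 2 to 3, and the number called with ARM165 from 9 to 10 in MOLM14, stayed at 10 in OCI-AML2, and ranged from 6 to 8 for the difference between the lines. Same-numbered correlations were small (-0.037 to 0.056), so the replicate numbers were not taken to pair the libraries; a library correlated best with its own number in 12 of 24 cases in MOLM14 and 9 of 24 in OCI-AML2, a hint from the data and not the design. With the replicate block the number called was 2 in OCI-AML2 with AZ2, 10 in MOLM14 with ARM165, and 6 for the difference between the lines with ARM165. Over all genes, the number called with AZ2 in OCI-AML2 was 17, 7 without the variance trend, 10 with the replicate block and 9 to 17 with 1 library left out; in MOLM14 it was 0, and 0 to 3 with 1 library left out, and for the AZ2 difference between the lines it was 4, and 0 to 7. Of 22 sterol genes, the number with a lower AZ2 change in OCI-AML2 than in MOLM14 was 3, and it ranged from 0 to 4 over the alternatives. What depth limits was not tested beyond the filters on low values.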
